A study of Mus musculus with 6 samples.

Results

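The 42 genes described here encode the parts with which an epithelial cell holds to its neighbours and carries an absorptive surface. They are cadherins, Epcam, catenins, desmosome proteins, tight junction scaffolds, claudins, keratins with the contrasting filament gene Vim, brush border and absorptive or goblet cell products, and 4 regulators of epithelial genes. They were picked by name and role, out of 54281 gene rows, and all 42 were found in the count table. Levels were read in GLUTag cells, a mouse line of glucagon-producing enteroendocrine cells that came from an intestinal tumour of a mouse in which the proglucagon promoter drove a viral T antigen.

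There were 6 libraries of polyadenylated RNA. Plate 1 gave 3 libraries of cells at passage 23 and plate 2 gave 3 at passage 27. No treatment is named, and all cells were grown for 48 h in DMEM with 1 g/L glucose, GlutaMAX and 10% FBS, on 0.4% Matrigel. Plate and passage thus cannot be told apart, and nothing says that the libraries of a plate came from separate cultures, so that p-values over the 6 libraries measure only the spread between them, which may be technical. In a kit that reads only the end of each transcript the count does not grow with the gene's length, so genes were compared within a library without a length correction. No molecular identifiers are named, so counts are of reads.

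In the intestine, E-cadherin (Cdh1) and its partners the catenins join cells at adherens junctions, desmosomes tie the keratin filaments of neighbouring cells together, and claudins and occludin seal the tight junction on the cytoplasmic scaffolds of the Tjp (zonula occludens) proteins. Simple intestinal epithelium is known for the keratins Krt8, Krt18, Krt19 and Krt20, for Epcam on the surface and for villin in the brush border. Mesenchymal and neural cells use N-cadherin (Cdh2) and vimentin (Vim) in their place.

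Total counts lay between 21399987 and 28083507 in the 4 smaller libraries and reached 30914501 and 36488198 on plate 2. Levels are given in CPM, the share of a library's total count on a common scale, and 3 counts, the most that a count of 0 allows, equal 0.0822 to 0.140 CPM. Values are listed in the order replicates 1, 2 and 3 for plate 1 and lowest, middle and highest total for plate 2. The chi-square per gene between libraries was 10.2 to 17.4 on plate 1. On plate 2 it was 30.5 between the libraries with the lowest and highest totals, but 79.3 and 127 between these and the library with the middle total, so results that rest on that library are also given without it. The cells matched their label in that 9 of 9 enteroendocrine markers reached 1 CPM in every library, with a sum of 5695 to 7624 CPM. Markers of enterocytes (0 of 5 at 1 CPM, sum 0.356 to 0.928 CPM), Paneth cells (0 of 3, sum at most 0.0390 CPM), white blood cells (0 of 5, sum 0.542 to 1.92 CPM) and fibroblasts (1 of 7, sum 4.87 to 7.12 CPM) were low. Some markers of other types were present, with 2 of 4 tuft cell markers (sum 62.3 to 77.6 CPM), 1 of 5 goblet cell markers (36.2 to 42.9 CPM) and 1 of 5 endothelial markers (3.60 to 99.8 CPM) at 1 CPM in every library.

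The members spread over the whole range of the table. Of the 42 members, 17 (40.5%) had 1 CPM or more throughout, beside 22.8% of all rows and 45.7% of the 27044 rows with any count. Another 5 members never had more than 3 counts, and 20 lay between these limits. The median member had 0.864 CPM. Every role had members with 1 CPM or more throughout and members without, except the catenins, both of which exceeded it in every library. The genes at the top were Vim, Cdh2, Ezr, Lgals4 and Krt20, and the 5 lowest were Cldn8, Cldn4, Cldn5, Krt19 and Fabp2. In bulk RNA, fewer cells of a type and less RNA per cell cannot be told apart, so a low level may stand for few cells or for little RNA in each.

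**Figure D1:**
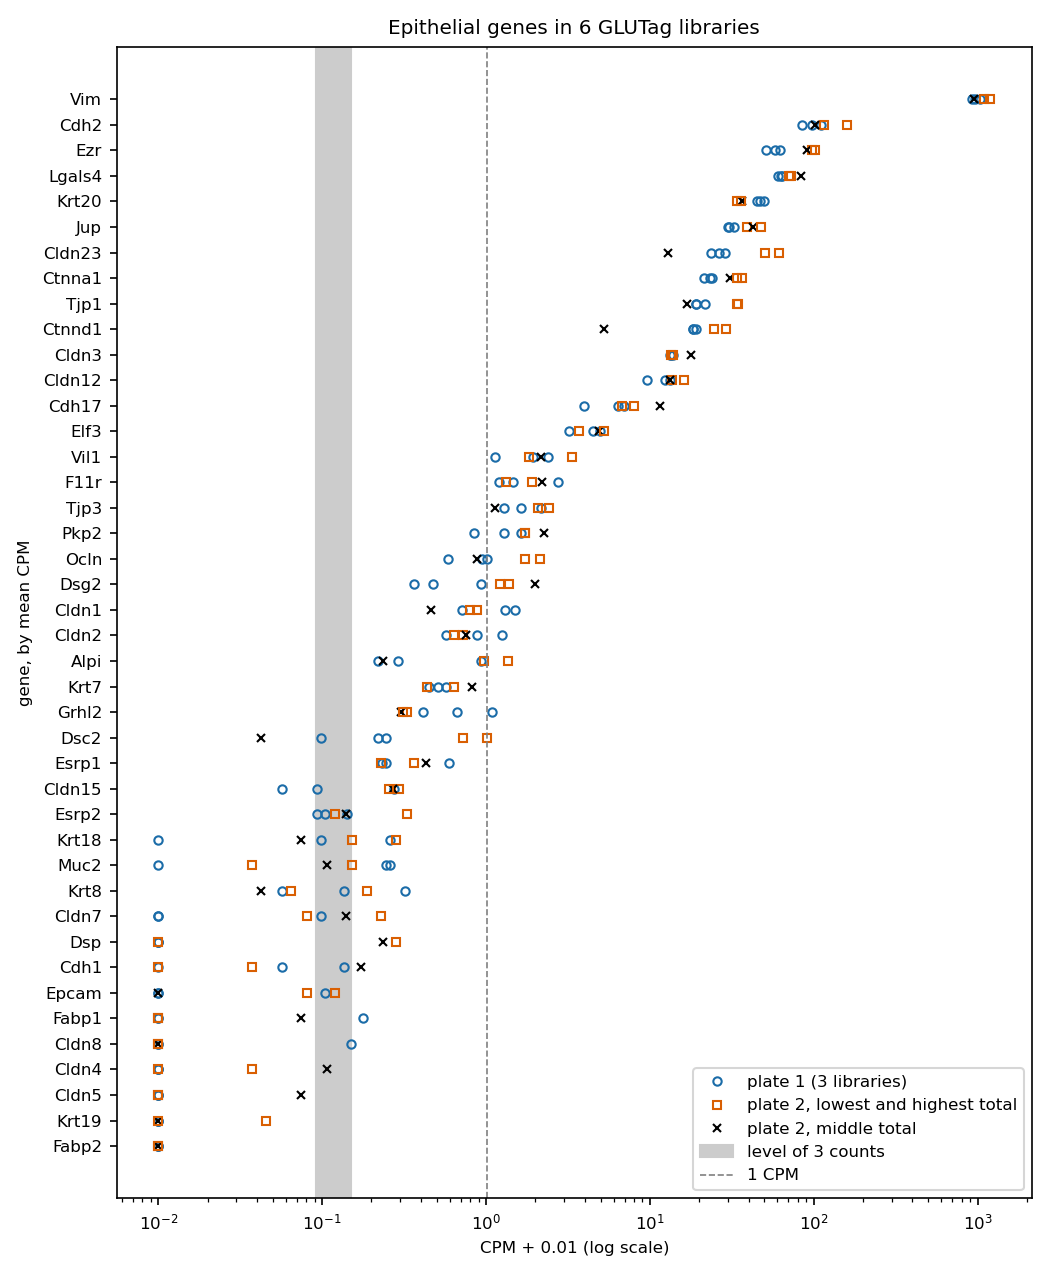
Level of each of the 42 members in each of the 6 GLUTag libraries, as CPM + 0.01 on a log scale, with genes ordered by mean CPM from top to bottom. Circles are plate 1, squares and crosses plate 2, the grey band is the level of 3 counts and the dashed line is 1 CPM; Vim stands alone at 923 CPM or more, 17 genes lie wholly to the right of the line, and the crosses of Cldn23 and Ctnnd1 lie far to the left of the other libraries.

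Among the intermediate filament genes, the vimentin gene was far above every keratin. Vim (ENSMUSG00000026728, chr2:13573927-13582826, plus strand of GRCm38) had 1030.0, 961 and 923 CPM on plate 1 and 1094, 953 and 1196 CPM on plate 2, or 1026 ± 104 CPM (SD, n = 6). Krt20 (ENSMUSG00000035775, chr11:99428403-99438150, minus strand), the keratin of differentiated intestinal epithelium, had 49.8, 46.7 and 45.1 CPM on plate 1 and 34.0, 36.5 and 35.9 CPM on plate 2. It was the keratin with the highest mean, at 41.4 ± 6.67 CPM (SD, n = 6), and its plates did not overlap.

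The paired simple-epithelial keratins were near the detection limit. Krt18 (chr15:102028180-102032027) had 6, 2 and 0 counts on plate 1 and 4, 2 and 10 counts on plate 2. Krt8, its obligate partner in the filament, which lies beside it at chr15:101996698-102004482, had 3, 7 and 1 counts on plate 1 and 5, 1 and 2 counts on plate 2. Both genes thus gave 10 counts or fewer per library, and their ranges overlapped. The log2 ratio of (CPM + 1) between Krt8 and Krt18 was -0.02 ± 0.19 (SD, n = 6), with a 95% counting interval of 0.410 to 1.51 for the ratio of the summed 19 and 24 counts (exact two-sided sign-flip permutation test, p = 0.844). Krt19, which pairs with Krt8 in the gut, had 1 count in 1 library and 0 in the other 5. Krt7, a keratin of ducts, lay above these with 0.562 ± 0.143 CPM (SD, n = 6) from 10 to 25 counts.

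Vim exceeded Krt18 in 6 of 6 libraries. Summed over the libraries there were 170044 counts of Vim and 24 of Krt18, a ratio of 7085 (95% counting interval 4762 to 11058), and the log2 ratio of (CPM + 1) was 9.82 ± 0.08 (SD, n = 6; exact sign-flip permutation p = 0.03125, the smallest that 6 libraries allow, adjusted p = 0.0469 over 15 pairs). Krt18 exceeded Krt19 in 5 of 6 libraries, with 24 counts in all beside 1 (95% counting interval of the ratio 3.91 to 987). The log2 ratio of (CPM + 1) was 0.17 ± 0.14 (SD, n = 6), which did not pass the same exact test (p = 0.0625, adjusted p = 0.0781).

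The promoters of these genes are printed because these intermediate filament genes differ widely in level. Keratins assemble with each other, and vimentin forms filaments of its own. Each is the RefSeq sequence on GRCm38.p6 from 250 bases before to 50 bases after the annotated start, 5′ to 3′ on the gene's strand. They lie at chr15:102004293-102004592 (Krt8, minus strand), chr15:102027966-102028265 (Krt18, plus strand), chr11:99438104-99438403 (Krt20, minus strand) and chr2:13574061-13574360 (Vim, plus strand). Capitals mark the hexamer CACCTG or its reverse complement CAGGTG, the E-box that Zeb and Snail repressors are known to bind, on either strand.
Krt8: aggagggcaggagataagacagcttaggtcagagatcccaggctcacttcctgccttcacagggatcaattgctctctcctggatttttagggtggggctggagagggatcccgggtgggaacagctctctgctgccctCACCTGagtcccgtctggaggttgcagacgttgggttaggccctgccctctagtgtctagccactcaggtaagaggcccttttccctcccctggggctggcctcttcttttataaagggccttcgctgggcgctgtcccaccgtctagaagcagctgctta
Krt18: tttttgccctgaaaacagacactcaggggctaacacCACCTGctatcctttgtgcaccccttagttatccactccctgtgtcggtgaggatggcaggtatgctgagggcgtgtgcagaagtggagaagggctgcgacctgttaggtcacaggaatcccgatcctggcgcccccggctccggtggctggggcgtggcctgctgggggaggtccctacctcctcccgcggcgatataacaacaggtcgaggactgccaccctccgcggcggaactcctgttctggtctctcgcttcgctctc
Krt20: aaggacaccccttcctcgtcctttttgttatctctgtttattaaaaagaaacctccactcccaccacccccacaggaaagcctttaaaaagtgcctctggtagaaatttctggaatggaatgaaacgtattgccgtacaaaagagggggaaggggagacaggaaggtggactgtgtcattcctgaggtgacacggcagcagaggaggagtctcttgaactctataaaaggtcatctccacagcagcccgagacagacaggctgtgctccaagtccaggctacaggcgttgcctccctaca
Vim: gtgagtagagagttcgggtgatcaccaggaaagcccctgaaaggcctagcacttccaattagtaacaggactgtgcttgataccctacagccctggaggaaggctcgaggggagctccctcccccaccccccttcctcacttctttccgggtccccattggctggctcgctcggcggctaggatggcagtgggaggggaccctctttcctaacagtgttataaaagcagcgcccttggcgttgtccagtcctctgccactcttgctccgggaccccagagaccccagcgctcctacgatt
The hexamer begins 111 bases before the start of Krt8 and 214 bases before that of Krt18, and neither Krt20 nor Vim holds it in this window. The RefSeq table held 35 promoters of 29 of the 42 members, since 5 of them had more than 1. The hexamer was in at least 1 promoter of 14 of the 29 (48.3%), beside 6098 of all 27025 genes of the table (22.6%), counted in the same way. The count was 6 of 13 (46.2%) among the members at 1 CPM or more throughout and 8 of 16 among the other members. At least 2 copies within 1 promoter were found in 4 of the 29 (Epcam, Cldn4, Cldn7 and Ocln; 13.8%), beside 3.32% of all genes. The median GC content was 59.3% in the 35 promoters and 52.7% in all 32851 of the table. The grainyhead site AACCNGTT, searched on both strands, was in 1 of the 29 (Cldn5), beside 2.35% of all genes. A match describes these letters and is not a measured binding site.

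At the cell surface, the cadherin of neural and mesenchymal cells was high and that of epithelium was nearly absent. Cdh2 (ENSMUSG00000024304) had 96.9, 85.2 and 110.1 CPM on plate 1 and 116, 101 and 159 CPM on plate 2. Cdh1 (ENSMUSG00000000303, chr8:106603351-106670246, plus strand) had 3, 0 and 1 counts on plate 1 and 0, 5 and 1 counts on plate 2. The ranges were thus apart in every library, with 18804 counts of Cdh2 in all beside 10 of Cdh1, a ratio of 1880.4 (95% counting interval 1022 to 3922). The log2 ratio of (CPM + 1) was 6.70 ± 0.34 (SD, n = 6; exact sign-flip permutation p = 0.03125, adjusted p = 0.0469).

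Cdh17, the liver-intestine cadherin, was the epithelial cadherin that was clearly detected. It had 6.92, 3.93 and 6.40 CPM on plate 1 and 8.01, 11.5 and 6.74 CPM on plate 2, with the highest value in the middle-total library of plate 2. Its mean was 7.24 ± 2.46 CPM (SD, n = 6) with that library and 6.40 ± 1.51 CPM (SD, n = 5) without it. Cdh17 exceeded Cdh1 in 6 of 6 libraries, with 1217 counts in all beside 10, a ratio of 121.7 (95% counting interval 65.9 to 254). The log2 ratio of (CPM + 1), which the pseudocount makes smaller where a gene is low, was 2.91 ± 0.38 (SD, n = 6, exact sign-flip permutation p = 0.03125, adjusted p = 0.0469). Epcam, the adhesion molecule used to sort intestinal epithelium, had 0, 0 and 2 counts on plate 1 and 2, 0 and 4 counts on plate 2. With 8 counts in all beside the 10 of Cdh1, no difference between them was detectable at this depth (95% counting interval of the ratio 0.274 to 2.25). The log2 ratio of (CPM + 1) was -0.02 ± 0.14 (SD, n = 6, exact permutation p = 0.750). Where a pair holds a gene near 0, as Cdh1 here, a small p says only that the other gene was detected.

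The Epcam promoter (chr17:87635729-87636028, plus strand, GRCm38.p6) is shown because it was 1 of the 4 members' promoters with 2 copies of the hexamer, again in capitals.
Epcam: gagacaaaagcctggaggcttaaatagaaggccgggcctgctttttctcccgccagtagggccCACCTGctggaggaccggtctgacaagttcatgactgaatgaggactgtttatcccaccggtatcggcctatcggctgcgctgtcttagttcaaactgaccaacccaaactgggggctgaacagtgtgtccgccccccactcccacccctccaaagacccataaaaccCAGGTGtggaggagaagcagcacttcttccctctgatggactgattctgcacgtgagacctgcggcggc
The copies begin 187 and 19 bases before the start.

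The catenins, which link cadherins to actin, were both detected in every library. Ctnna1, alpha-catenin, had 23.2, 21.3 and 23.8 CPM on plate 1 and 36.3, 30.8 and 33.8 CPM on plate 2, without overlap. Ctnnd1 (chr2:84600071-84650765, minus strand), p120-catenin, which holds cadherins at the membrane, had 18.2, 19.0 and 18.3 CPM on plate 1 and 24.5, 5.24 and 29.3 CPM on plate 2. The 5.24 CPM, from 162 counts in the library with the middle total, lay far below the other 5 libraries. Ctnna1 exceeded Ctnnd1 in 6 of 6 libraries with a log2 ratio of (CPM + 1) of 0.66 ± 0.84 (SD, n = 6, exact sign-flip permutation p = 0.03125, adjusted p = 0.0469). The mean was, however, 0.28 on plate 1, 1.03 on plate 2 and 0.32 without the middle library.

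Of the desmosome genes, the one that is shared with adherens junctions was well above those particular to desmosomes. Jup, plakoglobin (chr11:100368958-100397763, minus strand), had 32.6, 30.5 and 30.1 CPM on plate 1 and 39.3, 42.6 and 47.8 CPM on plate 2. Dsp, desmoplakin, which anchors keratins to the desmosome, had 0 counts in all 3 libraries of plate 1 and 0, 7 and 10 counts on plate 2. Jup thus exceeded Dsp in 6 of 6 libraries, with 6283 counts in all beside 17, a ratio of 369.6 (95% counting interval 231 to 635). The log2 ratio of (CPM + 1) of Dsp to Jup was -5.13 ± 0.15 (SD, n = 6, exact sign-flip permutation p = 0.03125, adjusted p = 0.0469).

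The desmosomal cadherins and their plaque partner were low. Dsg2, a desmoglein, had 0.917, 0.353 and 0.467 CPM on plate 1 and 1.21, 1.97 and 1.37 CPM on plate 2, and Pkp2, a plakophilin, had a mean of 1.58 ± 0.481 CPM (SD, n = 6) from 20 to 70 counts. Dsc2, a desmocollin, had 5, 2 and 5 counts on plate 1 but 28, 1 and 26 counts on plate 2, so that a single plate 2 library was below plate 1. Dsg2 exceeded Dsc2 in 6 of 6 libraries, with 185 counts in all beside 67, a ratio of 2.76 (95% counting interval 2.08 to 3.71). The log2 ratio of (CPM + 1) was 0.56 ± 0.51 (SD, n = 6, exact permutation p = 0.03125, adjusted p = 0.0469). It was 0.37 without that library, in which Dsg2 had 61 counts and Dsc2 had 1. Dsg2 was below Pkp2 in 5 of 6 libraries, by a log2 ratio of (CPM + 1) of -0.36 ± 0.36 (SD, n = 6), which did not pass the exact permutation test (p = 0.0625, adjusted p = 0.0781).

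Of the scaffold members Tjp1 and Tjp3, Tjp1 was the higher. Tjp1 (chr7:65296165-65527781, minus strand), the gene of the first zonula occludens protein, had 21.7, 19.0 and 19.1 CPM on plate 1 and 34.4, 16.9 and 34.0 CPM on plate 2. Here too the library with the middle total was the lowest of the 6. Tjp3, its relative in epithelia, had 2.17, 1.28 and 1.64 CPM on plate 1 and 2.42, 1.13 and 2.06 CPM on plate 2. Tjp1 exceeded Tjp3 in 6 of 6 libraries by 10.0- to 16.5-fold, with a log2 ratio of (CPM + 1) of 3.14 ± 0.26 (SD, n = 6; exact sign-flip permutation p = 0.03125, adjusted p = 0.0469). The last 500 bases of Tjp3 overlap Apba3 on the opposite strand, which had 30.8 CPM, and the strand setting of the counting is not given in the sources used here, so the level of Tjp3 is uncertain.

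Of the tight junction members that encode membrane proteins, F11r and Ocln were near 1 CPM, whereas some claudins, given below, were higher. F11r, junctional adhesion molecule A, had a lowest value of 1.19 CPM and a highest of 2.76 CPM, both on plate 1. Ocln, occludin, had 1.00, 0.574 and 0.935 CPM on plate 1 and 1.71, 0.873 and 2.11 CPM on plate 2, from 13 to 77 counts. F11r was above Ocln in 4 of 6 libraries, and the log2 ratio of (CPM + 1), 0.36 ± 0.47 (SD, n = 6), did not pass the exact permutation test (p = 0.156, adjusted p = 0.180).

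The claudins, whose mixture sets which ions pass between cells, divided into 3 at 1 CPM or more, 4 in traces and 3 at or under 3 counts. Cldn23 (chr8:35824712-35826559, minus strand) had the highest mean of the 10 members, with 28.7, 23.5 and 26.5 CPM on plate 1 and 50.7, 12.8 and 61.2 CPM on plate 2. The library with the middle total was again the lowest, and the highest value was 4.77 times the lowest. Cldn3 (chr5:134986214-134987472, plus strand), a sealing claudin of the gut, had 13.8, 13.5 and 13.3 CPM on plate 1 and 13.8, 17.7 and 13.4 CPM on plate 2. Cldn12 had 13.3, 9.63 and 12.3 CPM on plate 1 and 13.6, 13.3 and 16.3 CPM on plate 2.

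The other claudin members were low in every library. Cldn1 had 14 to 32 counts (0.935 ± 0.388 CPM, SD, n = 6), and Cldn2, a pore-forming claudin of leaky epithelia, had 12 to 28 counts (0.793 ± 0.242 CPM, SD, n = 6). Cldn15, the sodium pore of the small intestine, had 1 to 9 counts and Cldn7, the partner of Epcam, 0 to 8 counts. Cldn4 and Cldn8 had at most 3 counts and Cldn5, the claudin of endothelium, at most 2.

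Cldn3 and Cldn4 lie close together on chromosome 5 and differed widely in level, so their promoters are printed side by side with the hexamer in capitals. They lie at chr5:134985964-134986263 (Cldn3, plus strand) and chr5:134946885-134947184 (Cldn4, minus strand) of GRCm38.p6.
Cldn3: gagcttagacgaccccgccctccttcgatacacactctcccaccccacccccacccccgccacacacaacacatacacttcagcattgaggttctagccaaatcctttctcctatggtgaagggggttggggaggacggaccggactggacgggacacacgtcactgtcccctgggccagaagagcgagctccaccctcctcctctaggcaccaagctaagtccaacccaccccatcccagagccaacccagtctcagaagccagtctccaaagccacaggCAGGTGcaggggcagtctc
Cldn4: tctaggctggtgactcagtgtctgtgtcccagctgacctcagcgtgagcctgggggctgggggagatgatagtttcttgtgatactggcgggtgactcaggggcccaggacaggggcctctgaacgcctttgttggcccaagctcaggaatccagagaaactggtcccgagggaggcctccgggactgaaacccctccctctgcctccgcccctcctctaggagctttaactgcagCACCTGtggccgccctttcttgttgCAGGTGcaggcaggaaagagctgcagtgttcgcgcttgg
The hexamer is found 31 bases after the start of Cldn3. In Cldn4 it begins 14 bases before and 11 bases after the start.

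Brush border and lineage products were led by Lgals4 and Ezr. Lgals4 (chr7:28833854-28841708, plus strand), a galectin, which sorts glycoproteins to the apical membrane, had 64.4, 60.1 and 63.2 CPM on plate 1 and 72.6, 84.0 and 70.6 CPM on plate 2. Ezr (chr17:6738041-6782784, minus strand), ezrin, which ties the apical membrane to actin, had 62.0, 57.7 and 51.0 CPM on plate 1 and 97.7, 90.9 and 101 CPM on plate 2. Its plates did not overlap. Vil1, villin, which bundles the actin of microvilli, had 1.92, 2.39 and 1.12 CPM on plate 1 and 1.82, 2.17 and 3.34 CPM on plate 2. Ezr exceeded Vil1 in 6 of 6 libraries by 24.2- to 53.8-fold, with a log2 ratio of (CPM + 1) of 4.62 ± 0.35 (SD, n = 6; exact sign-flip permutation p = 0.03125, adjusted p = 0.0469). The last 500 bases of Vil1 overlap Usp37 on the opposite strand, which had 63.0 CPM, so Vil1 shares the uncertainty of Tjp3.

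The members that encode products of mature absorptive cells and the goblet cell mucin were low, with Alpi the highest of these 4 by mean. Alpi, the alkaline phosphatase of the brush border, had 5, 21 and 6 counts on plate 1 and 38, 7 and 35 counts on plate 2. Muc2, the goblet cell mucin, had 0 to 6 counts, and Fabp1, a fatty acid carrier of enterocytes, had 4 counts in one library, 2 in another and 0 in the remaining 4. Fabp2, the intestinal fatty acid carrier, was never counted in these libraries, which leaves it undetectable at this depth. Beside them, the enterocyte markers were low, as given above, whereas of the 5 goblet cell markers Tff3 had 37.8 ± 2.42 CPM (SD, n = 6) and the list summed to 36.2 to 42.9 CPM. The part of other cell types in these values was not tested.

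Among the regulators, Elf3 was the highest and the splicing factors were near the limit. Elf3, an ETS factor of epithelial differentiation, had 4.96, 4.46 and 3.18 CPM on plate 1 and 3.70, 4.88 and 5.23 CPM on plate 2. Grhl2, a grainyhead factor that activates Cdh1 and claudin genes, had 1.08, 0.400 and 0.654 CPM on plate 1 and 0.320, 0.291 and 0.301 CPM on plate 2, from 9 to 26 counts, so that every library of plate 2 was below plate 1. Grhl2 was below Elf3 in 6 of 6 libraries, with 78 counts in all beside 734, a ratio of 0.106 (95% counting interval 0.0830 to 0.134). The log2 ratio of (CPM + 1) was -1.85 ± 0.37 (SD, n = 6, exact sign-flip permutation p = 0.03125, adjusted p = 0.0469). Esrp1 and Esrp2, which set epithelial splice forms, had 5 to 14 and 2 to 9 counts, and Esrp1 was the higher in 6 of 6 libraries. In all there were 55 counts beside 24, a ratio of 2.29 (95% counting interval 1.40 to 3.87). The log2 ratio of (CPM + 1) was 0.22 ± 0.19 (SD, n = 6, exact permutation p = 0.03125, adjusted p = 0.0469). The end of Esrp2 overlaps that of Nfatc3, which lies on the opposite strand and had 38.4 CPM, over 219 bases, so the few counts of Esrp2 share the uncertainty of Tjp3 and Vil1.

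**Figure D2:**
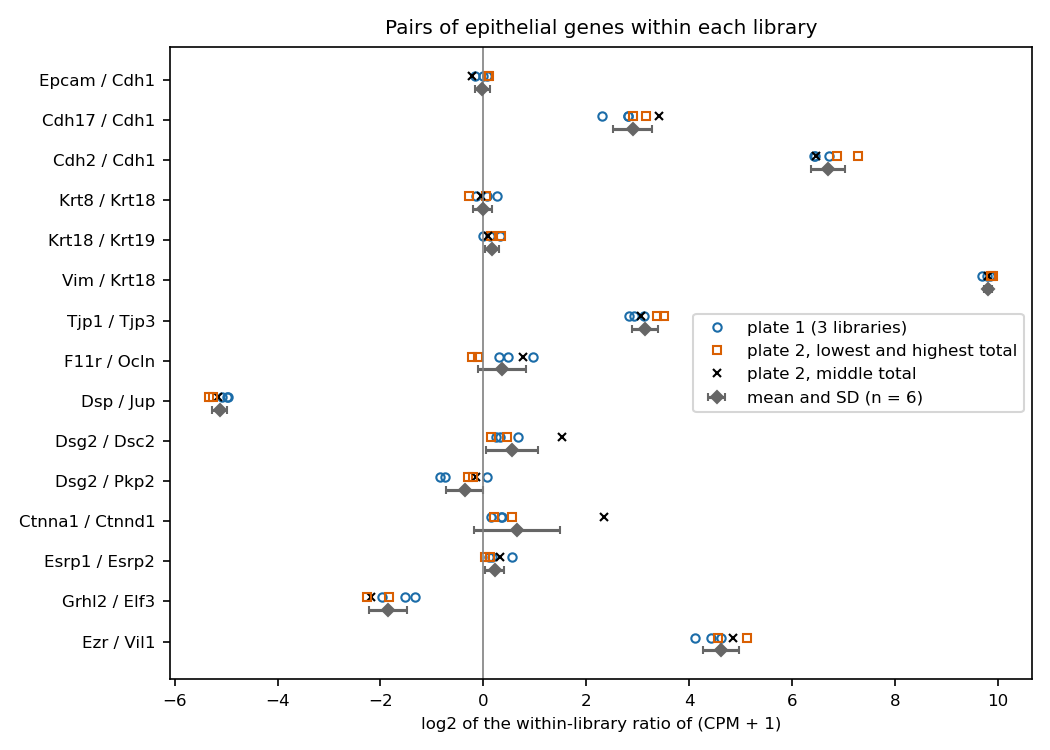
Log2 of the within-library ratio of (CPM + 1) for 15 pairs of members, first gene over second, with 1 point per library (circles plate 1, squares and crosses plate 2) and a diamond with a bar for the mean and SD of the 6 libraries. In 10 pairs all 6 points lie on one side of 0 and the exact test gave p = 0.03125; the cross of Ctnna1 over Ctnnd1 lies at 2.35, apart from the other 5 points.

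In all, 10 of the 15 pairs reached p = 0.03125 and an adjusted p of 0.0469 (exact two-sided sign-flip permutation test, Benjamini-Hochberg over 15 pairs), with the same direction in 6 of 6 libraries in each. That p is the smallest that 6 libraries allow. In pairs with a gene near the detection limit, such as Cdh1, Krt18 or Dsp, it says only that the other gene was detected. In the order of means, 5 of the 16 steps between neighbouring members with at least 1 CPM held in all 6 libraries. These were Vim over Cdh2, Cdh2 over Ezr, Lgals4 over Krt20, Cldn12 over Cdh17 and Elf3 over Vil1. Ezr and Lgals4 kept their order in 3 of 6 libraries, as did Krt20 and Jup, and the steps from Jup to Cldn12 were each smaller than 1 SD.

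The families from which the members were drawn, chosen after values had been seen, showed which relatives were present. Of 53 keratin genes, 5 reached 1 CPM in every library and 32 never exceeded 3 counts. Krt20 was the highest, followed by Krt10 with 23.5 ± 5.34 CPM (SD, n = 6), a keratin of cornified skin, Krt90 with 8.65 ± 1.40 CPM, Krt222 with 5.78 ± 1.17 CPM and Krt13 with 2.19 ± 0.427 CPM (SD, n = 6 for each). Of 32 claudin genes, 5 reached 1 CPM, and the highest means were those of Cldn14, which is no member, with 40.2 ± 7.46 CPM and of Cldn23 with 33.9 ± 18.2 CPM (SD, n = 6 for each). Without the middle-total library of plate 2 the means were close, at 37.4 ± 3.18 and 38.1 ± 16.8 CPM (SD, n = 5 for each). Cldn14 was above Cldn23 in every plate 1 library and below it in the lowest- and highest-total libraries of plate 2. Of 23 cadherin (Cdh) genes, 7 reached 1 CPM, and R-cadherin (Cdh4) with 92.5 ± 7.90 CPM (SD, n = 6) stood next to Cdh2. Cdh2 made up 33.0% to 42.1% of the cadherin counts of a library. None of 9 desmoglein and desmocollin genes reached 1 CPM in every library, and 6 never exceeded 3 counts.

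**Figure D3:**
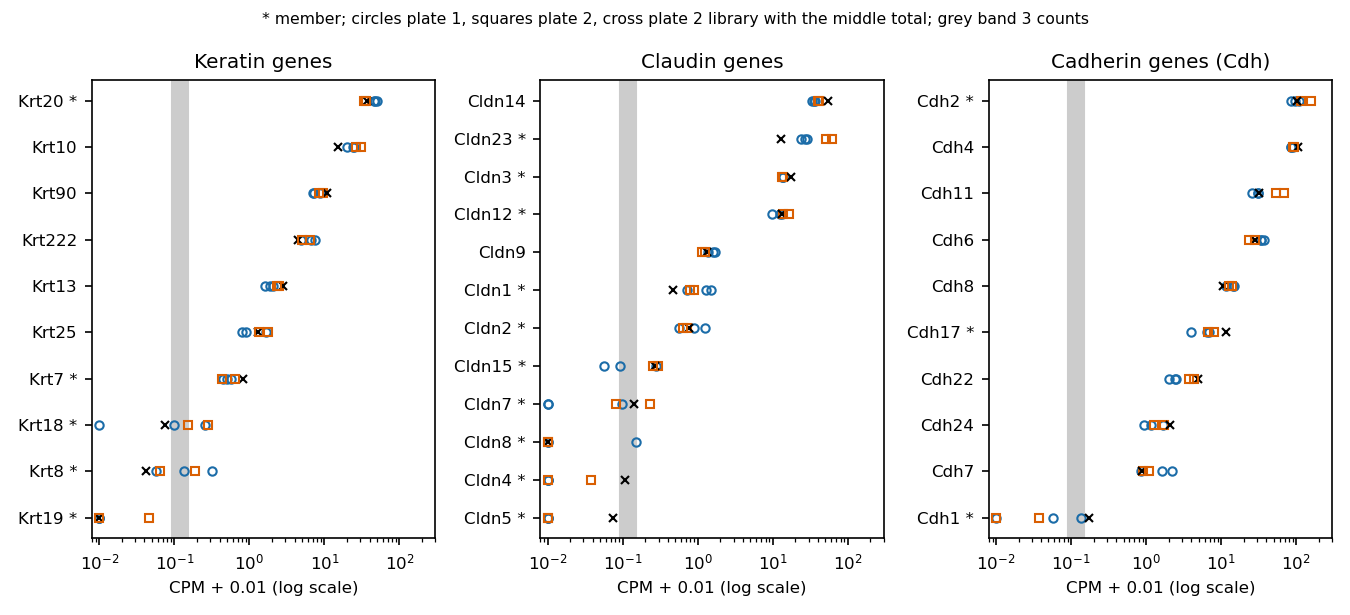
Levels of keratin, claudin and Cdh cadherin genes in each library, as CPM + 0.01 on a log scale, for the genes with the highest means and for the members, which bear an asterisk. Circles are plate 1, squares plate 2, crosses the middle-total library of plate 2 and the grey band the level of 3 counts. Krt20 and Cdh2 head their panels, and Krt8, Krt18, Krt19 and Cdh1 lie at or near the band. Cldn14 lies above Cldn23 on plate 1 and in the middle-total library, and below it in the other plate 2 libraries.

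A wider list of 109 genes, of which 108 were found, held 56 at 1 CPM or more throughout and 22 at or under 3 counts. It joined further genes of these structures and epithelial regulators with neurofilament and lamin genes. Factors and matrix genes associated with loss of epithelial traits were also in it. Of 13 further adherens junction genes 9 reached 1 CPM, led by Ctnnb1 (beta-catenin) with 291 ± 85.1 CPM, Cdh4, and Afdn (afadin) with 78.3 ± 10.2 CPM (SD, n = 6). Cdh3 and Cdh5 were at or under 3 counts. Of 14 further tight junction genes 11 reached 1 CPM, led by the scaffold genes Cgn (cingulin) with 47.8 ± 16.1 CPM and Mpp5 with 34.4 ± 5.81 CPM (SD, n = 6). Of 9 other claudins 2 reached 1 CPM, Cldn14 and Cldn9 (1.39 ± 0.207 CPM, SD, n = 6), and Cldn16, Cldn18 and Cldn19 were at or under 3 counts.

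Of 10 further desmosome and cytolinker genes 3 reached 1 CPM, namely Pkp4 (93.6 ± 19.5 CPM), Plec (plectin, 14.2 ± 2.69 CPM) and Evpl (envoplakin, 2.22 ± 0.304 CPM; SD, n = 6 for each), whereas Pkp1, Pkp3, Dsg1a, Dsg3 and Dsc3 were at or under 3 counts. Of the other intermediate filament genes, the neurofilament genes Nefm and Nefl had levels near or above that of Vim, with 1624 ± 64.9 and 1083 ± 106 CPM (SD, n = 6 for each). Ina (alpha-internexin) was lower with 191 ± 17.0 CPM (SD, n = 6), and the list had 9 of 15 genes at 1 CPM, with Krt5, Krt80 and Gfap at or under 3 counts. Of 13 apical cytoskeleton genes 7 reached 1 CPM, led by the ezrin relatives Rdx (radixin, 105 ± 8.41 CPM) and Msn (moesin, 57.6 ± 10.5 CPM) and by Eps8 (86.7 ± 19.4 CPM; SD, n = 6 for each). Of 21 further epithelial regulators and surface proteases 10 reached 1 CPM, led by the intestinal factors Cdx2 (56.0 ± 3.87 CPM) and Klf5 (42.9 ± 6.20 CPM) and by Ovol2 (25.1 ± 5.00 CPM; SD, n = 6 for each). Ehf, Elf5 and Cdx1 were at or under 3 counts.

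How the members varied between cultures was asked by comparing plate 2 with plate 1. Of the 15669 genes tested by edgeR's quasi-likelihood test, 29 (0.185%) passed an adjusted p of 0.05, and of the 25 members tested 0 passed. At an unadjusted p under 0.05 there were 2520 genes and 5 members, 3 higher and 2 lower on plate 2. DESeq2 called 1 of the 25 members, Krt20 (4%), beside 3.73% of all genes tested, and limma-voom called 0 members. The median log2 fold change was 0.05 over the members tested and 0.03 over all genes tested. Among 68 genes tested of the wider list, 0 passed with edgeR, 16 had an unadjusted p under 0.05, DESeq2 called 2 (2.94%) and limma-voom 0.

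The largest differences, named by size or by lack of overlap, are given with their edgeR standard errors. Scaled by TMM, Krt20 had 54.4, 52.7 and 48.4 CPM on plate 1 and 30.5, 33.8 and 32.6 CPM on plate 2, a log2 fold change of -0.68 (SE 0.12, edgeR adjusted p = 0.0712). On the same scale Ezr had 67.7, 65.1 and 54.7 CPM on plate 1 and 87.6, 84.3 and 92.1 CPM on plate 2, a log2 fold change of 0.49 (SE 0.12, edgeR adjusted p = 0.122). The plates did not overlap in either gene, and neither passed the threshold in this fit. With all 6 libraries Krt20 passed with DESeq2 and without a filter on low counts, and Ezr passed without that filter and without scaling beyond the total count. The other named members were further from the threshold in the fit with TMM. Grhl2 was at -1.48 (SE 0.53), Cldn1 at -0.98 (SE 0.44), Dsg2 at 1.12 (SE 0.45), Ocln at 0.64 (SE 0.42), Alpi at 0.55 (SE 0.75) and Ctnna1 at 0.30 (SE 0.13) on the log2 scale, with edgeR adjusted p from 0.223 to 0.779.

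On the TMM scale the plates did not overlap in 5 of the 25 members tested (20%), beside 24.8% of all genes tested. Ezr, Ctnna1 and Dsg2 lay wholly higher on plate 2, and Krt20 and Grhl2 wholly lower. Scaled by the total count alone, Lgals4, Jup and Pkp2 were also wholly higher on plate 2, which made 6 of 25 members (24%) beside 35.2% of all genes tested, and the median log2 fold change of all genes tested moved from 0.03 to 0.30.

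**Figure D4:**
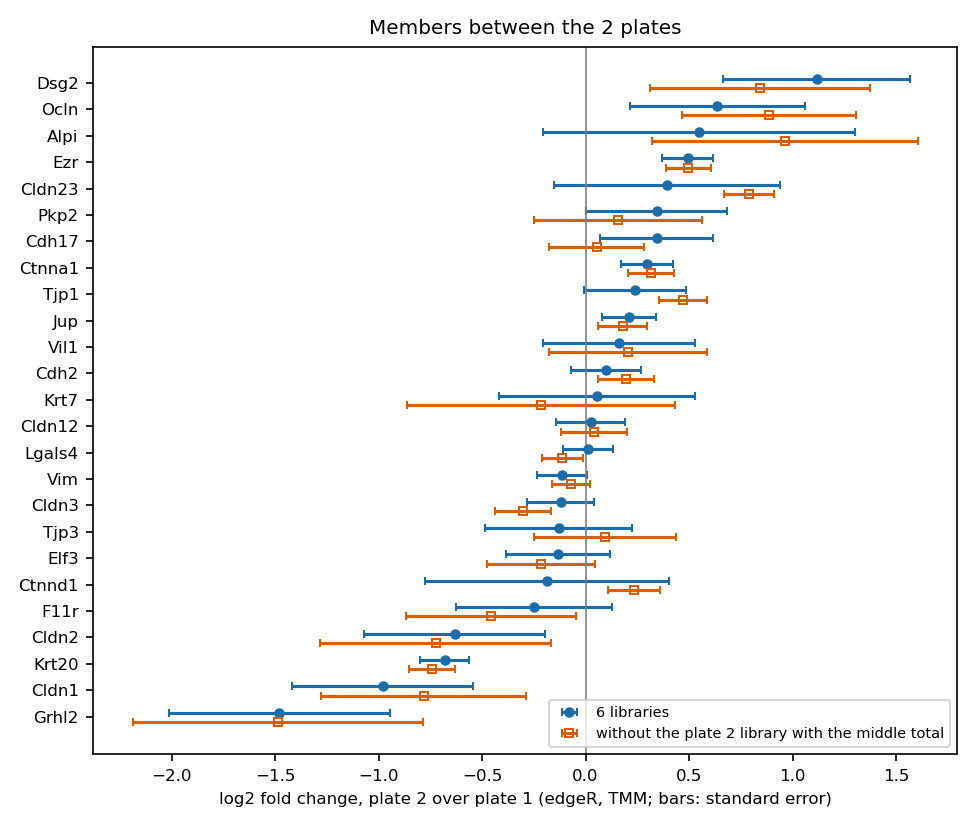
Log2 fold change of plate 2 over plate 1 (edgeR, TMM) for the 25 members tested, with bars for the standard error, from all 6 libraries (filled circles) and without the middle-total library of plate 2 (open squares). Krt20 and Ezr lie to either side of 0 with short bars in both fits, whereas Cldn23, Tjp1 and Ctnnd1 move to the right and their bars shorten when that library is left out.

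The count of calls depended on the middle-total library of plate 2. Without it 667 of 15894 genes (4.20%) passed as higher and 1244 (7.83%) as lower on plate 2. Of 26 members tested, 3 (11.5%) were higher and 1 (3.85%) was lower. These were Krt20 (log2 fold change -0.74, SE 0.11, edgeR adjusted p = 0.000815), Cldn23 (0.79, SE 0.12, edgeR adjusted p = 0.000933), Ezr (0.50, SE 0.11, edgeR adjusted p = 0.00900) and Tjp1 (0.47, SE 0.12, edgeR adjusted p = 0.0172). The share of members called in either direction, 15.4%, was near that of all genes. Omitting any of the other 5 libraries gave 0 members and between 0 and 9 genes, with 0 genes when plate 1 replicate 1 or the lowest-total library of plate 2 was left out.

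That library differed from its plate in some members. On the TMM scale Ctnnd1 had 4.86 CPM there and a mean of 24.3 CPM in the other libraries of plate 2, a log2 difference in (CPM + 1) of -2.11. Cldn23 had 11.9 beside 50.6 CPM, and Tjp1 15.7 beside 30.9 CPM, a log2 difference of -0.94. Cdh17 went the other way with 10.6 beside 6.66 CPM (0.60), as did Cldn3 with 16.4 beside 12.3 CPM (0.39). The median over all genes tested was 0.004, and 0.734% and 0.983% of them had a lower value than Ctnnd1 and Cldn23. Tjp1 lay at percentile 6.32 of all genes tested, Cldn3 at 87.0 and Cdh17 at 96.6, so shifts like that of Cldn3 were common. Pecam1, an endothelial marker, moved likewise, with 3.41 CPM in that library and 23.7 to 99.8 CPM in the other 5, while the other 4 endothelial markers had at most 0.194 CPM each.

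**Figure D5:**
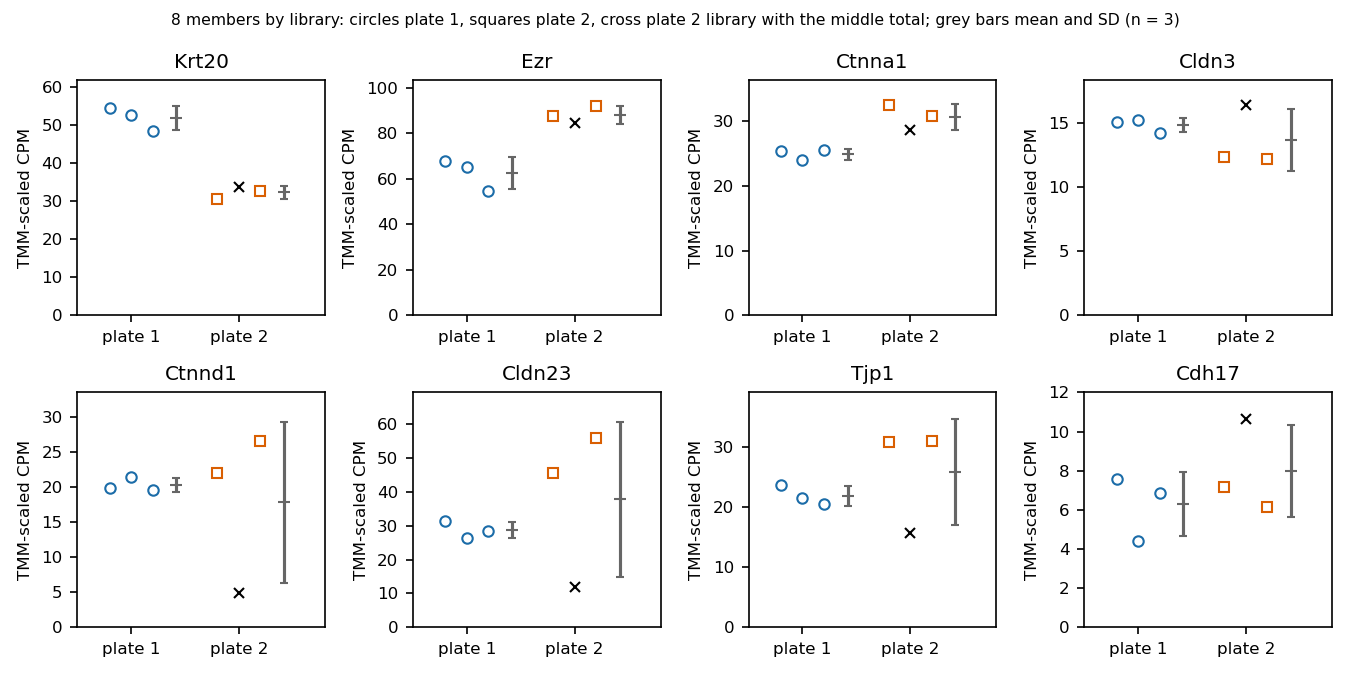
TMM-scaled CPM of 8 members in each library (circles plate 1, squares and crosses plate 2), with the mean and SD of the 3 libraries of a plate as grey bars and each axis starting at 0. Krt20, Ezr and Ctnna1 do not overlap between plates; in Ctnnd1, Cldn23 and Tjp1 the cross, the middle-total library of plate 2, is the lowest point, and in Cldn3 and Cdh17 it is the highest.

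Members differed in how much they varied between the libraries of a plate. The biological coefficient of variation that edgeR estimated, which leaves out differences between plates, had a median of 0.277 over the 25 members tested and of 0.200 over all genes tested. It was highest for Alpi (0.589), Ctnnd1 (0.494) and Cldn23 (0.457), and lowest for Vim (0.137), Lgals4 (0.139), Ezr (0.140) and Krt20 (0.140). Over all 6 libraries, plates included, the coefficient of variation in CPM was 10.1% for Vim, 12.5% for Lgals4, 29.0% for Ezr and 16.1% for Krt20. The spread of Ctnnd1 and Cldn23 within plate 2 rested largely on the middle-total library. Over all libraries the SD with and without it was 8.08 and 4.90 CPM for Ctnnd1, and 18.2 and 16.8 CPM for Cldn23. Without that library, the edgeR standard error of the log2 fold change between plates fell from 0.59 to 0.13 for Ctnnd1. For Cldn23 it fell from 0.55 to 0.12.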

How the data were processed

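RNA of GLUTag cells was measured in 6 libraries made with the QuantSeq 3′ mRNA-Seq FWD kit. Per the labels and the study's methods, the authors trimmed reads with Trim Galore 0.6.4, assigned them with Salmon 1.5.1 without length correction to GRCm38 transcripts of GENCODE release M23, and combined them into genes with Tximeta. What the authors deposited are expected counts, of which 7.08% to 8.89% of all values per library, zeros included, were not whole, without normalization. Plate 1 columns matched replicates 1, 2 and 3. Plate 2 columns could not be matched to single replicates, so those libraries are told apart by lowest, middle and highest total.

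CPM were taken over the library total from unrounded counts, and counts were rounded for edgeR 4.0.16, DESeq2 1.42.0 and limma 3.58.1 (R 4.3.3). Symbols and positions are from GENCODE release M21 on GRCm38, which held 54107 of the 54281 identifiers. Pairs of genes, set by role, were tested on the within-library log2 ratio of (CPM + 1), with a pseudocount of 1, by exact two-sided sign-flip permutation, Benjamini-Hochberg adjusted over 15 pairs. Plates were compared by edgeR's robust quasi-likelihood test after TMM scaling and filterByExpr, adjusted over all genes tested at 0.05. All fits were tested on simulated data. Alternatives were DESeq2, limma-voom, other scalings, filters and pseudocounts, and leaving out each library. Intervals are exact (Clopper-Pearson, 95%) on summed counts and, like the limit of 3 counts, cover counting error only.

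The members and lists were chosen with earlier results of these data known, and the gene families, the comparison of the middle-total library of plate 2 and the counts of members without overlap after values had been seen. Members with at least 1 CPM in every library are named with values. Most members in a pair have each library's value or count, but Pkp2, F11r, Esrp1 and Esrp2 have a mean or range. The others have their range of counts. Between plates a member is named when it passes the threshold, when its libraries do not overlap or when it is among the 3 largest changes in either direction. Of the wider list, the 3 highest genes of each sublist and those at or under 3 counts are named, except for a few that are not reported here. Promoters are from a RefSeq table, and a motif was counted for a gene when any of its promoters held it. Secretion, protein and other datasets of the study were not used here.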

Additional observations from a re-analysis of the deposited data

Results flagged for a closer look

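Of 26 members with a mean count of 10 or more, Cldn3 had 1 library far from the others. Its level was 17.7 CPM in the middle-total library of plate 2 and 13.3 to 13.8 CPM in the other 5. The gap made up 0.882 of the whole range, where the 95% critical value of Dixon's test for 6 values is 0.625. The mean was 14.2 CPM with that library and 13.6 ± 0.231 CPM (SD, n = 5) without it. Chance takes about 1 of 20 groups past that critical value, and 26 members were examined.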

How the results depend on the processing

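The sign and the exact p of a pair with 6 of 6 libraries in one direction cannot change with the pseudocount or with a scaling common to both genes, so these alternatives do not bear on the 10 calls. The size of a log2 ratio does depend on the pseudocount where a gene is low. For Cdh17 over Cdh1 it was 2.91 at a pseudocount of 1, beside a ratio of 121.7 in summed counts. Leaving out any library ends these calls by design, since the smallest p that 5 libraries allow in the exact sign-flip permutation test is 0.0625. Against 29 genes, 0 members and 0 genes of the wider list past the threshold, DESeq2 gave 584, 1 and 2, the total count without further scaling gave 1461, 3 and 6, and no filter on low counts gave 545, 2 and 3. The members were Krt20 with DESeq2 (4% of 25 tested, beside 3.73% of all genes), Ezr, Jup and Ctnna1 without further scaling (12% of 25, beside 9.32%) and Krt20 and Ezr without a filter (4.88% of 41, beside 2.02%). Limma-voom gave 10 genes. Without further scaling 1390 of the 1461 genes were higher on plate 2, compared with 2 of 29, and the median log2 fold change of all genes was 0.30 in place of 0.03. Leaving out each library in turn gave 0 to 1911 genes, 0 to 4 members and 0 to 7 genes of the wider list, the upper values without the middle-total library of plate 2. Members without overlap, higher on plate 2, numbered 6 in place of 3 on the total count (24% of members, 35.2% of all genes tested) and 7 without that library (28%, 23.1%), and those lower on plate 2 numbered 4 in place of 2 without it (16%, 20.2%). Members at a limit of 10 counts numbered 15, in place of 5 at 3 counts. The cause was not tested. No paired analysis was made. The column names reuse the replicate numbers of plate 1 on plate 2, whereas the sample titles do not. Nothing in the labels ties a shared number to a pair of libraries. Depth limits statements on members with a few counts per library.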

Other observations

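Factors and matrix genes that are associated with loss of epithelial traits were described from the same wider list. Of 13 genes, 5 reached 1 CPM in every library. They were the RNA-binding splicing regulators Qk with 63.6 ± 14.2 CPM and Rbfox2 with 35.2 ± 5.69 CPM, fibronectin (Fn1) with 33.7 ± 10.5 CPM, the repressor Zeb1 with 27.3 ± 3.23 CPM and Snai2 with 5.59 ± 1.82 CPM (SD, n = 6 for each). Snai1 had 6 to 24 counts and Zeb2 had 0 to 7 counts. Twist1, Twist2 and Foxc2 were at 0 throughout, and Snai3 and Sparc had at most 3 counts.

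Markers of other secretory lineages of the gut were uneven. The trefoil peptide gene Tff3, a goblet cell marker, had 37.8 ± 2.42 CPM (SD, n = 6), whereas Agr2 had 1.25 ± 0.366 CPM (SD, n = 6) and Clca1 and Spdef had at most 3 counts. Of the tuft cell markers, Dclk1 had 67.2 ± 5.77 CPM and Avil had 2.08 ± 0.626 CPM (SD, n = 6 for each), while Pou2f3 had at most 1 count and Trpm5 at most 6.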
